A study of Mus musculus with 4 samples.

Results

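CD8 T cells that carried checkpoint receptor RNA but no detected Tcf7 RNA were examined in tumor-draining lymph nodes. The 372 cells described here were chosen by their own counts: 1 or more UMIs (unique transcript counts) of Cd3e or Cd3d and of Cd8a or Cd8b1, no UMI of Tcf7, and a sum of 3 or more UMIs over the inhibitory receptors Pdcd1, Lag3, Havcr2 and Tigit. Cells with Trdc, H2-Aa or Mki67 UMIs, or with more than 2 UMIs of Gzma and Gzmb together, were left out. They were 372 of 47820 deposited barcodes and 1.27% of the 29351 CD8 T cells that met every other part of the rule. The 14 genes of the rule are given as a description and were not tested.

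The cells had been sorted as CD8+ PD-1+ CD44+ from the tumor-draining lymph nodes of female C57BL/6 mice that carried B16F10GP tumors on both flanks. The study also sorted naive CD8+ cells (CD44- CD62L+) of untreated mice as controls. Whether such cells are among the gated CD8 T cells or the reference populations used here was not tested. B16F10GP is the B16F10 melanoma line with the glycoprotein of lymphocytic choriomeningitis virus as a model tumor antigen. The mice received radiotherapy of 1 tumor and an antibody blocking PD-L1 (RT + αPD-L1), radiotherapy alone (RT), the antibody alone (αPD-L1), or no treatment (Control), and the treated mice were analyzed 7 days after treatment. Each treatment was 1 droplet library that pooled 5 mice marked by hashtag antibodies, so a treatment and its library cannot be told apart. The libraries gave 111 of the cells in RT + αPD-L1, 94 in RT, 82 in αPD-L1 and 85 in Control. Of these, 358 were traced to 1 mouse, 7 carried several hashtags and 7 carried none.

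TCF-1, the protein of Tcf7, is a transcription factor that maintains stem-like CD8 T cells, which renew themselves and give rise to more differentiated progeny. Chronically stimulated CD8 T cells that lose TCF-1 usually keep PD-1 (Pdcd1) and gain further inhibitory receptors such as LAG-3, TIGIT and TIM-3 (Havcr2), and their function becomes restricted. In lymph nodes most antigen-experienced PD-1+ cells retain TCF-1.

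The cells held a median of 5926.5 UMIs (range 2015 to 24096), against 8610.5 in 3408 Tcf7-positive checkpoint-high cells and 4696 in 1885 Tcf7-negative cells with no UMI of the 4 receptors, here called checkpoint-low. The median was 4919 in RT + αPD-L1, 5804.5 in RT, 6450.5 in αPD-L1 and 6879 in Control. Mitochondrial UMIs made up a median of 1.66%. Mouse 3 of RT + αPD-L1 supplied 61 of the 111 cells of its library. Several hashtags, a sign of 2 cells in a droplet, were found in 1.88% of the cells, against 13.1% of Tcf7-positive checkpoint-high cells and 2.92% of checkpoint-low cells. Between 158 and 234 barcode sequences were shared by each pair of libraries.

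A Tcf7 count of 0 depended on depth. Among checkpoint-high cells, Tcf7 was at 0 in 32.4% of cells with 2000 to 3999 UMIs and in 5.39% of cells with 12000 or more. When every barcode was thinned to 2000 UMIs before the rule was applied, 351 cells met it, and 62.1% of them had Tcf7 UMIs in the deposited counts. Of the 372 cells, 81 had 2000 to 3999 UMIs and 110 had 4000 to 5999 UMIs, a range where Tcf7 was at 0 in 15.85% of checkpoint-high cells. The 372 cells are therefore cells without detected Tcf7, and many may have carried the transcript. How many did was not tested. Tcf7-negative means in this text that no Tcf7 UMI was detected. Each comparison below was repeated with the thinned gate and, as a choice made after seeing the data, in cells of 6000 or more UMIs.

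Lag3 was the most widely detected of the 4 receptors. It was found in 323 of 372 cells (86.8%, exact 95% binomial interval 83 to 90.1), with 1214 UMIs in all. Pdcd1 was found in 231 cells (62.1%) with 535 UMIs, and Tigit in 162 cells (43.5%) with 415 UMIs. Havcr2, the gene of TIM-3 and a marker of terminally differentiated exhausted cells, was found in 21 cells (5.65%, interval 3.53 to 8.5) with 34 UMIs. The intervals cover counting error only. The name checkpoint-high therefore rested on Lag3, Pdcd1 and Tigit in most cells.

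In GRCm38, Tcf7 lies at chr11:52252371-52283014 (minus strand), Pdcd1 at chr1:94038305-94052553 (minus), Lag3 at chr6:124904361-124911705 (minus), Tigit at chr16:43648867-43664146 (minus) and Havcr2 at chr11:46454935-46481255 (plus). Free RNA can place UMIs in cells that do not express a gene. In 118 barcodes with 3 or more H2-Aa UMIs and no UMI of the CD3 and CD8 genes, a pattern of antigen-presenting cells, the median depth was 3907 UMIs. There, Pdcd1 was detected in 0, Tigit in 0.85% and Lag3 in 2.54%, and Havcr2 in 3.39%. The 372 cells were chosen for UMIs of these receptors, so their shares exceed those of other barcodes by construction and expression above background was not tested. Dendritic cells can express Havcr2 themselves.

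The receptors occurred in different combinations. Pdcd1 with Lag3 was the most frequent with 113 cells, followed by Lag3 alone with 70, Pdcd1 with Lag3 and Tigit with 66, and Lag3 with Tigit with 55. Of all cells, 98 carried 1 receptor, 190 carried 2, 77 carried 3 and 7 carried all 4. Pdcd1 was found in 43.6% of Tcf7-positive checkpoint-high cells, Lag3 in 92.2%, Tigit in 46.5% and Havcr2 in 3.02%. The pooled Pdcd1 level was 300 CPM (counts per 1e6 UMIs) in RT + αPD-L1, 190 CPM in RT, 157 CPM in αPD-L1 and 144 CPM in Control. Tigit stood at 140 CPM in RT + αPD-L1, 201 CPM in RT, 183 CPM in αPD-L1 and 100 CPM in Control. These levels are pooled over cells, and mouse 3 supplied 61 of the 111 RT + αPD-L1 cells. The rule set a minimum of receptor UMIs, so shallower cells tend to a higher receptor CPM by construction. Median depth was lowest in RT + αPD-L1 and highest in Control, and receptor levels were not tested between treatments.

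**Figure D1:**
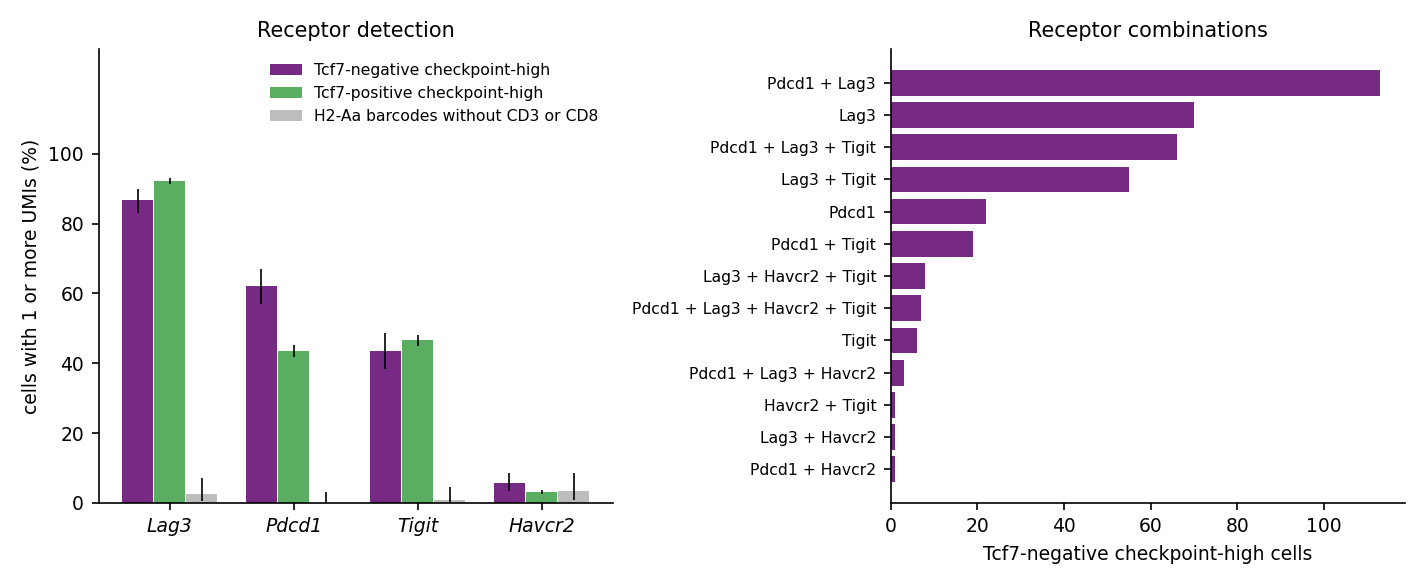
Left, percentage of cells with 1 or more UMIs of each receptor in Tcf7-negative checkpoint-high cells, Tcf7-positive checkpoint-high cells and H2-Aa barcodes without CD3 or CD8, with exact 95% binomial intervals. Right, number of Tcf7-negative checkpoint-high cells with each combination of detected receptors; Havcr2 was found in 5.65% of the cells and Pdcd1 with Lag3 was the most frequent combination with 113 cells.

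Cells on both sides of the receptor threshold were compared as a description. Xcl1, which encodes a chemokine that attracts cross-presenting dendritic cells, stood at 1670 CPM in 102 cells with a sum of 3, at 967 CPM in 201 Tcf7-negative cells with a sum of 2, and at 204 CPM where the sum was 0. Lef1, a factor related to TCF-1, stood at 99.5 CPM at a sum of 3, at 159 CPM at a sum of 2 and at 339 CPM at 0. Igfbp4, which marks naive T cells in mice, stood at 1.51 CPM at a sum of 3, at 23 CPM at 2 and at 182 CPM at 0. In all 3 genes the cells just below the threshold lay between those at 3 and those at 0. Xcl1 did not rise steadily with the sum, as it stood at 1018 CPM at a sum of 1 and at 970 CPM at a sum of 8.

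The share of these cells among gated CD8 T cells was compared between treatments over mice. RT + αPD-L1 mice had 1.16%, 1.12%, 2.17%, 1.13% and 1.73%, RT mice had 0.955%, 1.32%, 2%, 2.73% and 1.11%, αPD-L1 mice had 0.658%, 1.21%, 0.762%, 1.18% and 1.03%, and Control mice had 0.603%, 1.39%, 1.92%, 0.682% and 1.72%. All 4 ranges overlapped. The mean was 1.46% ± 0.48 in RT + αPD-L1, 1.62% ± 0.74 in RT, 0.97% ± 0.25 in αPD-L1 and 1.26% ± 0.60 in Control (SD, n = 5 each). In 5 comparisons, the differences of means were 0.20 percentage points for RT + αPD-L1 minus Control, 0.36 for RT minus Control, −0.30 for αPD-L1 minus Control, −0.16 for RT + αPD-L1 minus RT and 0.49 for RT + αPD-L1 minus αPD-L1. None passed a two-sided exact permutation test after adjustment (adjusted p 0.437 to 0.722, smallest p the design allows 0.0079). With the thinned gate the means were 1.32% in RT + αPD-L1, 1.11% in RT, 0.97% in αPD-L1 and 0.86% in Control, and every adjusted p was 0.69. With all filtered barcodes as the denominator, RT + αPD-L1 minus αPD-L1 was 0.3451 percentage points and passed (exact permutation test, adjusted p = 0.0397).

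**Figure D2:**
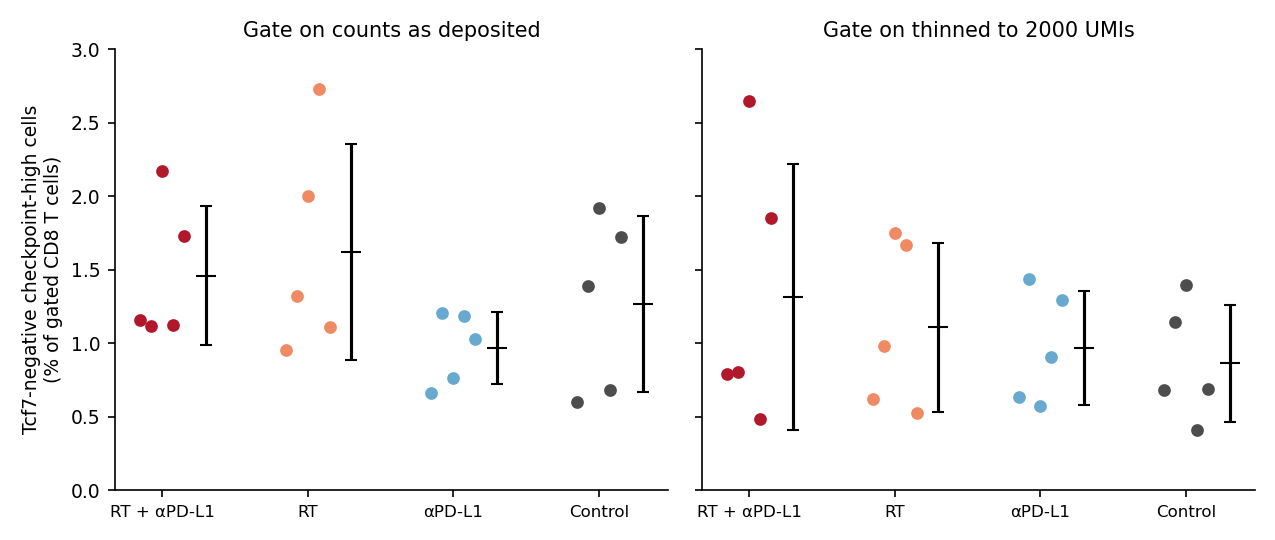
Share of Tcf7-negative checkpoint-high cells among gated CD8 T cells, 1 point per mouse, with the mean and SD of each treatment (n = 5 mice), from the counts as deposited (left) and after thinning every barcode to 2000 UMIs (right). The 4 ranges overlap under both gates.

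The cells were then set against Tcf7-positive checkpoint-high cells of the same mice to find what else differed in cells without detected Tcf7. The test used counts summed per mouse and population in the 13 mice with at least 10 cells of each population (4 of RT + αPD-L1 and 3 of each other treatment), with mouse as a block. Of 6284 genes tested, 1661 (26.4%) differed at an adjusted p under 0.05, 885 higher and 776 lower. Antigen receptor response genes were mostly higher and stem and memory genes mostly lower. With the thinned gate 46 genes were called, 42 of them shared with the 1661. Of 55 called named genes that could be tested with the thinned gate, 42 lost the call.

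Il2ra, the high-affinity interleukin-2 receptor chain, showed the largest rise of the named genes. Its lowest, median and highest levels were 35.5, 72.3 and 165 CPM in the Tcf7-negative cells, against 2.18, 12.5 and 22.3 CPM in the Tcf7-positive cells, so the groups did not overlap. Its log2 fold change was 2.49 (SE 0.25, edgeR adjusted p = 2.4e-10), with the higher level in the Tcf7-negative cells of 13 of 13 mice. Il2ra, with the thinned gate, was below the filter on low counts and was not tested.

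Xcl1 had 694, 1806 and 3452 CPM (lowest, median, highest) in the Tcf7-negative cells, against 159, 329 and 751 CPM in the Tcf7-positive cells. The ranges met only at their edges, and all 13 mice had more in the Tcf7-negative cells. The log2 fold change was 2.32 (SE 0.20, edgeR adjusted p = 3.2e-12) and 1 with the thinned gate, which kept the call.

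Costimulatory receptors and antigen receptor response genes were also higher. Tnfrsf9, the costimulatory receptor 4-1BB, had 195, 420 and 673 CPM (lowest, median, highest) in the Tcf7-negative cells, against 102, 132 and 198 CPM in the Tcf7-positive cells, and a log2 fold change of 1.53 (SE 0.14). Tnfrsf4, which encodes the costimulatory receptor OX40, had 55.3, 177 and 509 CPM, against 18.5, 48.8 and 105 CPM, and a log2 fold change of 1.79 (SE 0.14). Both were higher in the Tcf7-negative cells of 13 of 13 mice, with overlapping ranges. Among genes of antigen receptor response and anergy, 11 of 19 tested rose and 2 fell, and the median log2 fold change of the list was 0.55, against −0.01 over all genes. Nrgn rose by 0.97 (SE 0.23) in the mean, with the higher level in 8 of 13 mice. Tnfrsf9, with the thinned gate, kept its call at 0.85, Tnfrsf4 lost it at 0.87 (edgeR adjusted p = 0.0577), and 2 genes of the list rose and 1 fell of 16 tested.

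Ccl4 had 62.8, 490 and 1114 CPM (lowest, median, highest) in the Tcf7-negative cells, against 44.3, 103 and 185 CPM in the Tcf7-positive cells, a log2 change of 1.94 (SE 0.28). Its log2 change with the thinned gate was 0.50 (edgeR adjusted p = 0.511). Ccl5 rose by 1.22 on average, but was higher in only 8 of 13 mice, ranged between 0 and 4047 CPM in the Tcf7-negative cells, and lost the call with the thinned gate (0.19) and in cells of 6000 or more UMIs (0.56). Nr4a1, Irf4 and Nr4a3, which are induced by antigen receptor signals, rose by 1.36, 1.14 and 1.08, but all 3 lost the call with the thinned gate, where Nr4a1 stood at 0.11, Irf4 at 1.04 and Nr4a3 at −0.081. Of 14 exhaustion and effector transcription factors 8 rose and 3 fell (median 0.45), but none was called with the thinned gate (13 tested). Tox, the factor that sustains the exhausted state, had 98.1, 181 and 331 CPM in the Tcf7-negative cells, against 148, 187 and 264 CPM in the Tcf7-positive cells, and its log2 change of −0.12 (SE 0.11) did not pass the test. In cells of 6000 or more UMIs, from fewer mice, Tox was lower at −0.53 (edgeR adjusted p = 0.00604).

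A list of inhibitory receptors outside the rule, which also holds ligands and ectoenzymes, followed a mixed course. Of its 12 tested genes 7 rose and 1 fell (median 0.46). Cd160 rose by 1.03 (SE 0.12), Pdcd1lg2, a ligand of PD-1, by 1.03 (SE 0.16) and Cd200, also a ligand, by 0.90 (SE 0.11). Cd200 had 144, 269 and 418 CPM in the Tcf7-negative cells, against 99.8, 130 and 167 CPM in the Tcf7-positive cells. Ctla4 was not called (log2 change −0.22, SE 0.13), with 129, 213 and 305 CPM in the Tcf7-negative cells, against 165, 241 and 315 CPM in the Tcf7-positive cells, but was lower in cells of 6000 or more UMIs (−0.63, edgeR adjusted p = 0.0264). None of 10 was called with the thinned gate, and Cd200 stood at 0.48 (edgeR adjusted p = 0.0989). Of 11 costimulatory receptors 6 rose and none fell (median 0.35), and 1 of 11 with the thinned gate.

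Stem and memory genes fell: 14 of 19 tested were lower and 2 higher, with a median log2 change of −0.58. Lef1 had 55.1, 73.7 and 133 CPM in the Tcf7-negative cells, against 150, 170 and 204 CPM in the Tcf7-positive cells, so the groups did not overlap (log2 change −1.11, SE 0.11, edgeR adjusted p = 5.7e-10). Dapl1 fell by 1.19, Sox4 by 1.34 and Klf2, which maintains expression of homing receptors, by 0.72. Of 16 homing and adhesion genes 6 fell and none rose (median −0.34), among them Ccr7, which guides T cells into the T cell zone, by 0.58. Ccr7 lost the call with the thinned gate (−0.16, edgeR adjusted p = 0.801) and in cells of 6000 or more UMIs (−0.53, adjusted p = 0.0659), while 3 of 15 genes of the homing list fell with the thinned gate. With the thinned gate 2 of 18 stem and memory genes fell, Klf2 (−0.70) among them, while in cells of 6000 or more UMIs 12 of 18 fell. Tmem108 had the largest fall of the named genes (log2 change −1.93, SE 0.29), at 0, 11.8 and 20.4 CPM, against 25.5, 39.4 and 57.3 CPM in the Tcf7-positive cells.

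Other lists moved in both directions. Of 18 effector and cytotoxic genes 7 rose and 4 fell, and Ifng, the gene of interferon-γ, rose by 0.69 (SE 0.17). None of 16 effector and cytotoxic genes was called with the thinned gate, where Ifng stood at 0.32 (edgeR adjusted p = 0.396). Of 10 survival genes 4 rose and 1 fell, with Bcl2a1d at 1.03, although Bcl2a1d shares sequence with its paralogs and their counts may be split. Interferon-stimulated genes had no steady direction: 7 of 32 rose and 3 fell (median 0.10), but none of 20 rose and 11 fell in cells of 6000 or more UMIs (median −0.48). Of 13 cell cycle genes 1 rose and 3 fell, of 14 glycolysis genes 4 rose and 2 fell, and of 18 MHC class I presentation genes 4 rose and 3 fell. Psme2, a proteasome activator subunit, rose by 0.55 with no overlap, at 611, 674 and 811 CPM against 374, 446 and 518 CPM in the Tcf7-positive cells.

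**Figure D3:**
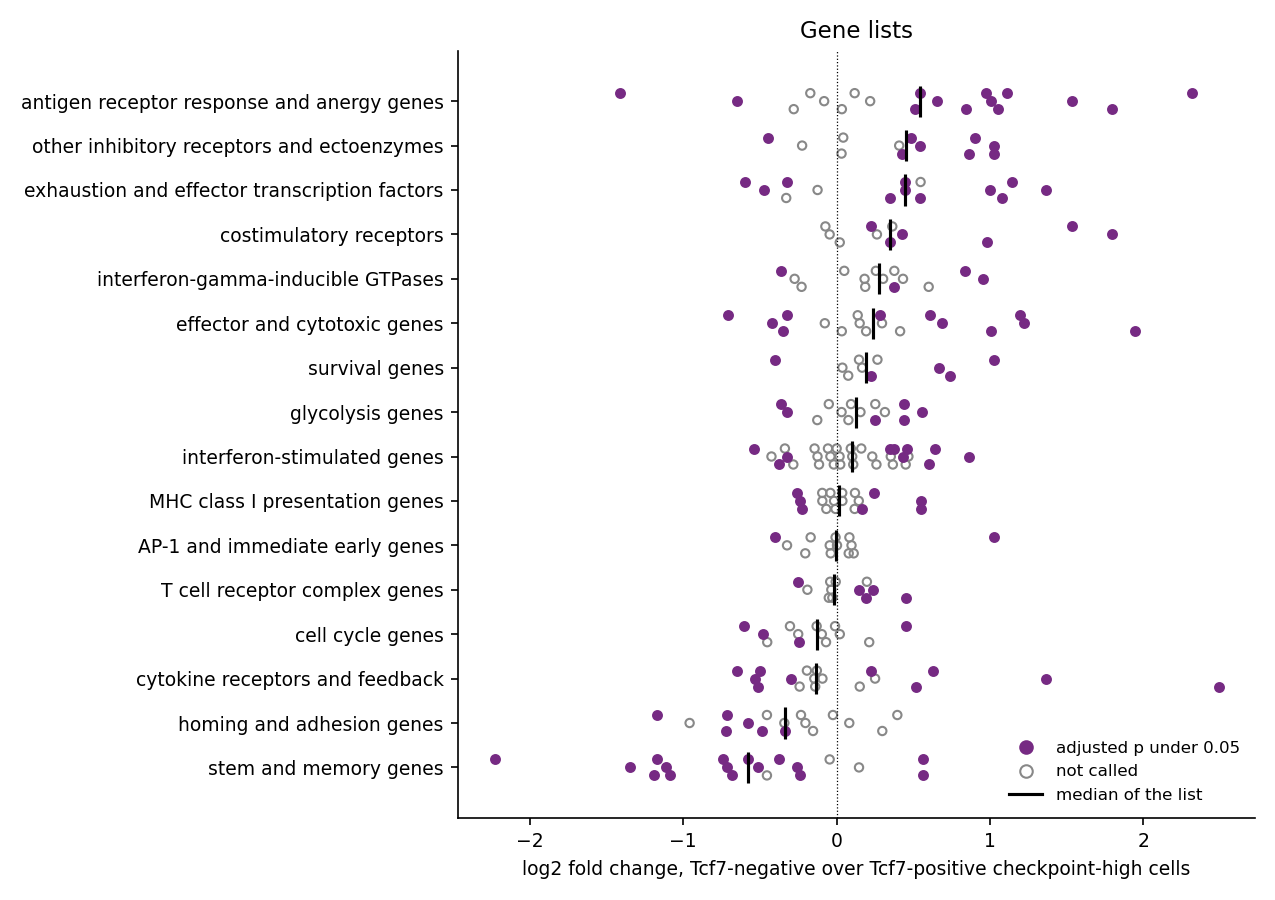
Log2 fold change of each tested gene between Tcf7-negative and Tcf7-positive checkpoint-high cells (13 mice), grouped by list for lists with 5 or more tested genes, with filled points for adjusted p under 0.05 and a bar at the median of the list. The median was −0.58 for stem and memory genes and 0.55 for antigen receptor response genes.

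Markers of other cell types were measured beside these results. Of 6 markers of CD4 and regulatory T cells, Il2ra and Cd40lg were the 2 that could be tested and both rose, Cd40lg by 1.91. The summed level of the list was 73.2 to 280 CPM per mouse in the Tcf7-negative cells, against 20.7 to 71.5 CPM in the Tcf7-positive cells. After thinning, 19.1% of the Tcf7-negative and 6.69% of the Tcf7-positive cells had a UMI of the list. Cd4 itself was found in 2 of 372 cells and Foxp3 in 6, while Cd40lg was found in 60 and Il2ra in 81. Activated CD8 T cells can also express Il2ra and Cd40lg. A B cell marker was found in 35.2% of the thinned Tcf7-negative and 41.6% of the Tcf7-positive cells, with Ms4a1 and Ebf1 at 0, and a dendritic or myeloid marker in 22.3% and 19.1%, with Csf1r and Siglech at 0. Natural killer markers were found in 1.08%, γδ T cell markers in 2.42% and melanoma markers in 0.27% of the thinned cells. The part of other cells in the differences was not tested further.

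Against Tcf7-negative checkpoint-low cells of the same 13 mice, 2513 of 6284 genes (40%) differed, 1338 higher and 1175 lower. Antigen receptor response genes were mostly higher and stem and memory genes mostly lower. Nrgn had 108, 361 and 1513 CPM (lowest, median, highest), against 0, 4.23 and 85.3 CPM in checkpoint-low cells, without overlap (log2 change 4.82, SE 0.36). Tnfrsf4 had a log2 change of 3.87, Nrn1 of 3.66, Xcl1 of 3.41 and Cd200 of 3.16, all higher in 13 of 13 mice. C2cd4b had 123 UMIs, against 11 UMIs in checkpoint-low cells, a ratio of levels of 36.4 (95% counting interval 19.7 to 74.9). Tox rose by 0.73 and Ctla4 by 0.85, and Ifng by 2.50.

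The naive T cell gene Igfbp4 was at 0 CPM at the lowest and the median and at 11.8 CPM at the highest, with 4 UMIs in all, against 123, 182 and 288 CPM and 1491 UMIs in checkpoint-low cells. Ccr9, a homing receptor for the gut, had 2 UMIs, against 326 UMIs (ratio of levels 0.02, interval up to 0.07). Il7r, the interleukin-7 receptor that supports resting T cells, fell by 2.11, Lef1 by 2.15, Klf2 by 2.14 and Satb1 by 2.21, each lower in 13 of 13 mice. Of 19 stem and memory genes 13 fell and 3 rose (median −1.05, against 0.01 over all genes), of 19 antigen receptor response genes 14 rose and 2 fell, and of 14 exhaustion and effector transcription factors 10 rose and none fell. The thinned gate called 1121 genes.

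**Figure D4:**
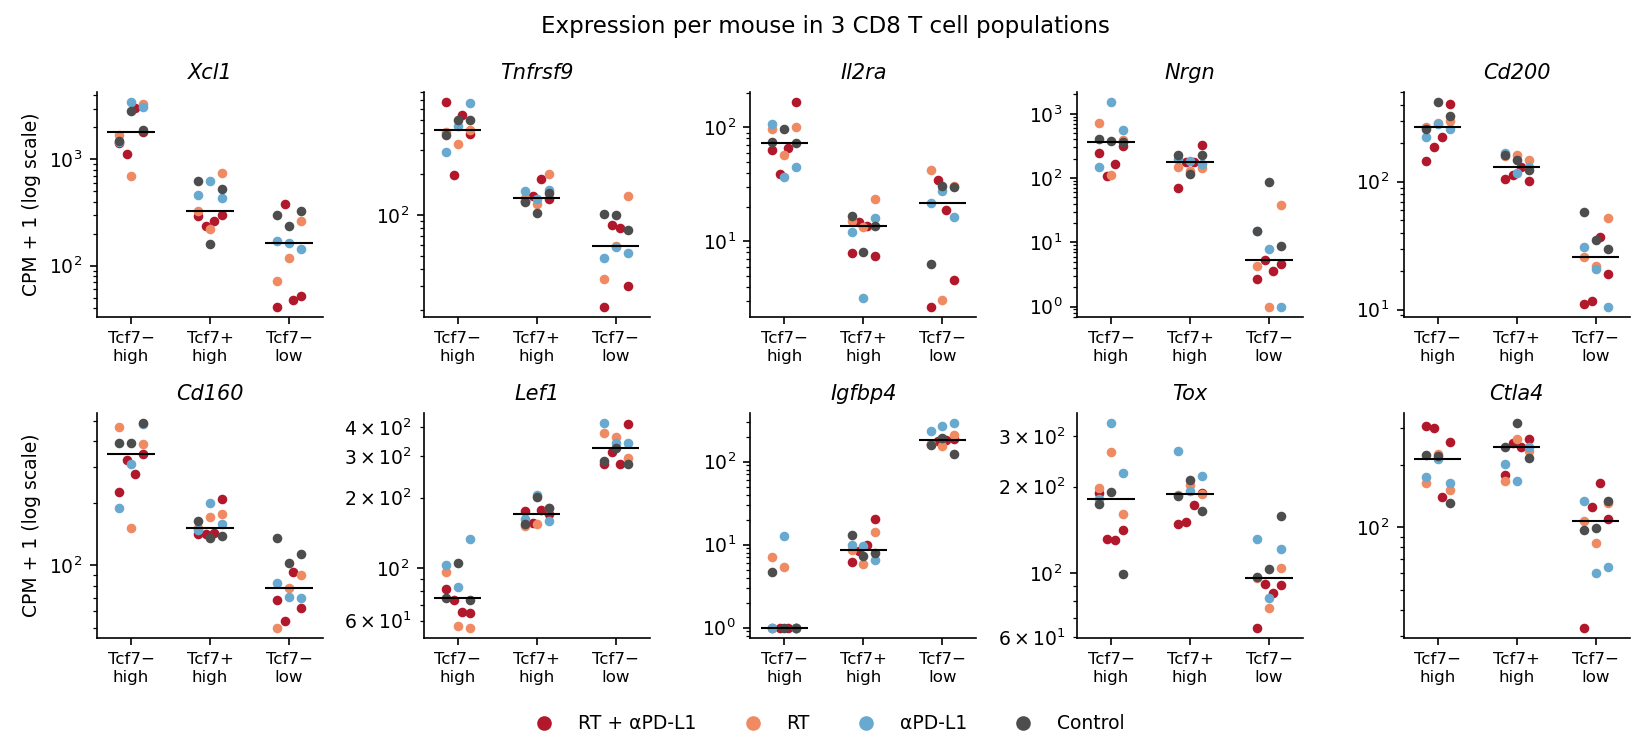
CPM + 1 on a log scale of 10 genes in Tcf7-negative checkpoint-high (left), Tcf7-positive checkpoint-high and Tcf7-negative checkpoint-low cells of the same 13 mice, 1 point per mouse colored by treatment, with the median as a bar. Lef1 and Il2ra do not overlap between both checkpoint-high populations, and Igfbp4 stands at 0 to 11.8 CPM in the left group.

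Treatments were compared within the Tcf7-negative checkpoint-high cells of the same 13 mice, in 1 fit over all treatments. RT + αPD-L1 differed from Control at 41 of 3490 genes (1.17%), 39 higher and 2 lower. In the interferon-stimulated gene list 18 of 27 tested were higher and none lower, the median log2 change was 2.35 against −0.01 over all genes. The list holds 40 genes, and some of the 27 passed the filter on low counts through their level in RT + αPD-L1, so the count and the median are descriptions. With no filter 39 were tested, 30 of them called higher and none lower. The summed level of the interferon-stimulated genes was 20381, 22641, 7273 and 11220 CPM in RT + αPD-L1 mice 2 to 5, against 5124, 7000 and 4724 CPM in Control mice 2, 3 and 5. Each RT + αPD-L1 mouse lay above each Control mouse, and mouse 4 lay close to the highest of them.

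Isg15, a ubiquitin-like protein and interferon target, had 1229, 1230, 249 and 356 CPM in the RT + αPD-L1 mice, against 51.6, 161 and 56.8 CPM in Control, without overlap (log2 change 3.35, SE 0.69, edgeR adjusted p = 0.021). Irf7, a transcription factor that amplifies interferon responses, had 395, 506, 277 and 178 CPM in RT + αPD-L1, against 33.2, 95 and 67.1 CPM in Control (log2 change 2.61, SE 0.40, adjusted p = 0.0038). Isg20, an antiviral exonuclease, had 440, 465, 148 and 204 CPM in RT + αPD-L1, against 58.9, 28.5 and 20.7 CPM in Control (log2 change 3.08, SE 0.45). In all 3 genes mice 2 and 3 of RT + αPD-L1 were the highest.

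Ifit1 and Ifit3, which bind or restrict viral RNA, were again highest in mice 2 and 3. Ifit1 had 332, 564, 120 and 63.6 CPM in RT + αPD-L1, against 11.1, 19 and 10.3 CPM in Control (log2 change 4.58, SE 0.73). Ifit3 had 664, 617, 138 and 50.9 CPM in RT + αPD-L1, against 7.37, 0 and 15.5 CPM in Control, and its reads may be shared with the near-identical Ifit3b. Usp18, which removes ISG15 from proteins and dampens interferon signaling, had 305, 343, 73.8 and 12.7 CPM in RT + αPD-L1, against 0, 0 and 5.16 CPM in Control. With 161 UMIs against 1 UMI, its ratio of levels was 143 with a 95% counting interval of 25.3 to 5682. Oas1a had 70 UMIs in RT + αPD-L1, against 2 UMIs in Control (ratio 31.1, interval 8.29 to 262). Zbp1, Slfn5, Phf11b and Ifi208 rose by 3.26, 2.98, 3.11 and 3.57 on the log2 scale.

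**Figure D5:**
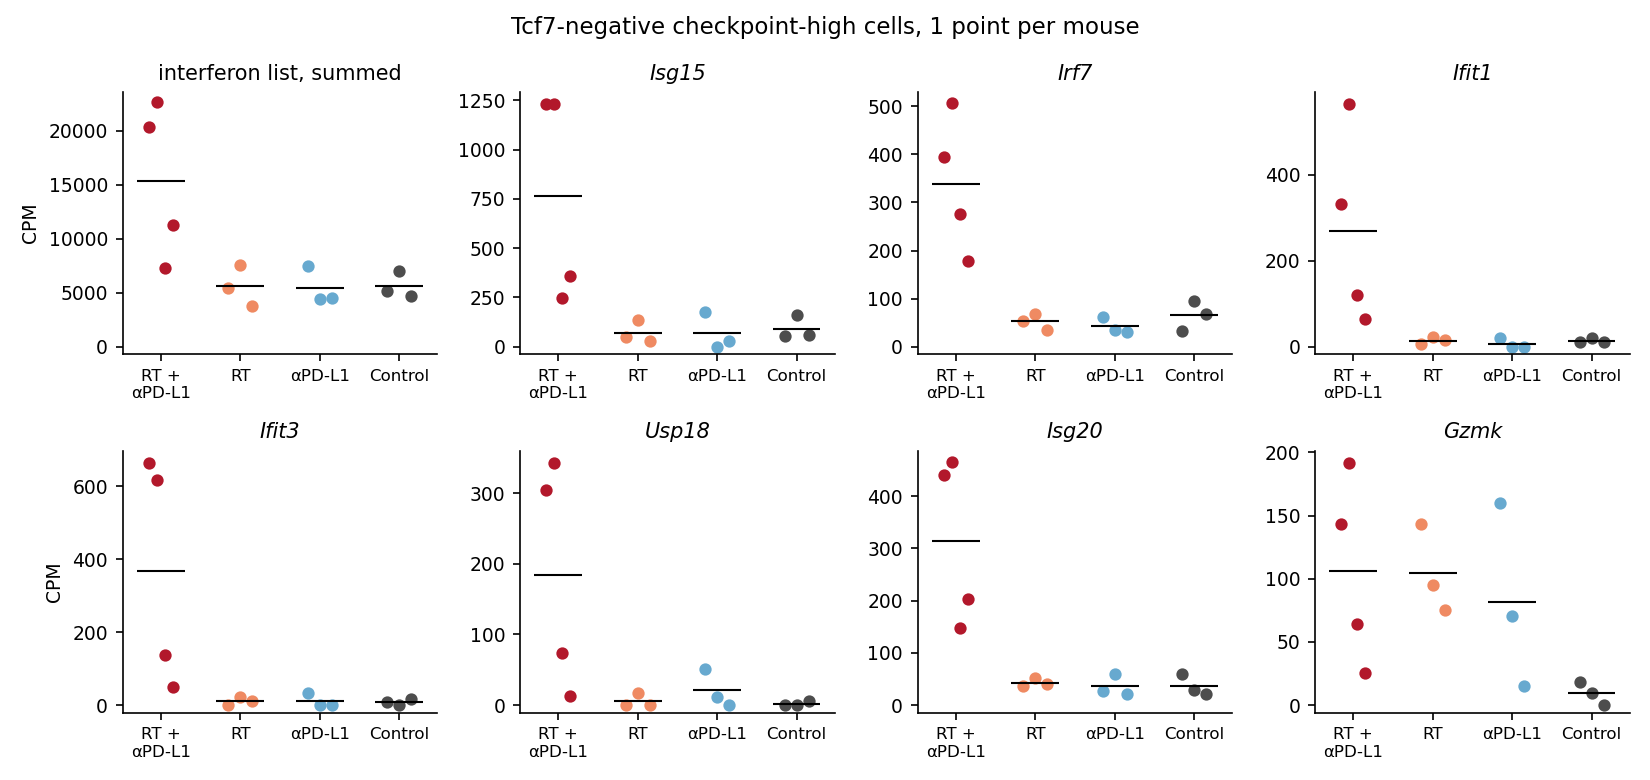
CPM in Tcf7-negative checkpoint-high cells by treatment, 1 point per mouse with the mean as a bar, for the summed interferon-stimulated gene list, 6 of its genes and Gzmk. Isg15 lies between 249 and 1230 CPM in the 4 RT + αPD-L1 mice, above the 3 Control mice at 51.6 to 161 CPM, and Gzmk is lowest in Control.

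Gzmk, the gene of granzyme K, was the only called gene of the effector and cytotoxic list (1 of 16). It had 144, 192, 64.5 and 25.4 CPM in RT + αPD-L1, 144, 94.8 and 75.1 CPM in RT, 160, 70.9 and 14.8 CPM in αPD-L1, and 18.4, 9.5 and 0 CPM in Control. Every RT + αPD-L1 and RT mouse lay above every Control mouse, while αPD-L1 overlapped Control. The log2 change of RT + αPD-L1 over Control was 3.52 (SE 0.80, edgeR adjusted p = 0.036). The changes of RT over Control, 3.24 (SE 0.84, adjusted p = 0.758), and of αPD-L1 over Control, 3.10 (SE 0.86, adjusted p = 0.999), did not pass. Gbp9 and Irgm1 were the 2 called genes of 11 GTPases inducible by interferon-γ (median 2.02). No gene of the stem and memory, antigen receptor response, inhibitory receptor or exhaustion factor lists was called (15, 18, 10 and 13 tested). The 2 lower genes, Gm42418 and AY036118, overlap ribosomal RNA and lay at −0.78 and −0.79.

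The number of calls varied with the mice and the settings. When mice were left out singly, the count was 1 if Control mouse 2 was dropped, 8 for Control mouse 5, 26 for Control mouse 3, 9 for RT + αPD-L1 mouse 2, 4 for its mouse 3 and 78 for its mouse 4. HTODemux, the hashtag method that the study names, left 24 genes in 1 of its forms and 2 in the other. With the thinned gate 25 were called. In cells of 6000 or more UMIs 1 RT + αPD-L1 mouse was left, so no conclusion is drawn from the count there. In the thinned gate 11 of 21 interferon-stimulated genes tested were called higher, with HTODemux 13 of 26 and 1 of 30, and none was called lower. The RT + αPD-L1 cells were also the shallowest (median 4919 UMIs, against 6879 in Control). In simulated counts of this design 34 of 100 changes of 1 on the log2 scale and 93 of 100 changes of 2 were recovered. Of 3018 unchanged genes 9 were called. The changed genes were drawn from the more highly expressed genes, so these rates do not cover genes as low in Control as Usp18 and Gzmk.

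RT + αPD-L1 also differed from both single treatments. Against RT, 18 of 3490 genes (0.516%) were called, all higher, 10 of them among the 27 interferon-stimulated genes (median 1.92), with Ifit3 at 5.05, Usp18 at 4.87, Ifit1 at 4.32 and Isg15 at 3.46. Against αPD-L1, 19 genes (0.544%) were called, all higher, 11 of them interferon-stimulated (median 2.25), with Ifit1 at 4.72, Ifit3 at 4.43 and Isg20 at 3.39. The summed level of the interferon-stimulated genes was 5436, 7549 and 3759 CPM in RT and 7460, 4385 and 4535 CPM in αPD-L1, so that RT + αPD-L1 mouse 4 with 7273 CPM overlapped both. Some alternatives ended most or all calls. Against αPD-L1 there were 0 at a receptor sum of 4 or more and 3 in the second form of HTODemux, which left 2 against RT. No conclusion is drawn from counts in cells of 6000 or more UMIs, because mouse 3 was the only RT + αPD-L1 mouse left. These comparisons share the RT + αPD-L1 mice. The call counts also moved when a mouse was left out. Against RT it was 2 without RT + αPD-L1 mouse 3, 6 without mouse 2, 41 without mouse 4, 30 without mouse 5, 9 without RT mouse 2 and 6 without RT mouse 5. Against αPD-L1 it was 2 without RT + αPD-L1 mouse 3, 5 without mouse 2, 54 without mouse 4, 38 without mouse 5, 9 without αPD-L1 mouse 3 and 2 without αPD-L1 mouse 4.

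Neither single treatment gave a call on a coding gene. RT against Control had 0 called genes in edgeR (0%), 127 at an unadjusted p under 0.05 and 0 in DESeq2. The smallest p values belonged to Lgals3 (log2 change 3.6), Dnajc9 (1.32), S100a6 (1.82), Gimap7 (2.85) and Gzmk (3.24), with adjusted p of 0.52 or more. Lgals3, the gene of galectin-3, had 114, 103 and 55.1 CPM in RT, against 14.7, 0 and 0 CPM in Control. αPD-L1 against Control had 1 called gene (0.0287%), Gm42418 at −1.03, with 118 genes at an unadjusted p under 0.05 and 1 call in DESeq2. That call was lost without αPD-L1 mouse 2 or 4 and without Control mouse 2 or 5. The next smallest p values belonged to AY036118, Klrd1, Itga4, Gzmk and Trim59, all with adjusted p of 0.738 or more. Against Control, the interferon-stimulated genes had a median of 0.14 for RT and of 0.03 for αPD-L1, with no call among 27.

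Whether the combined treatment changed these cells more than Tcf7-positive checkpoint-high cells was tested as an interaction. It gave 0 calls of 6732 genes in edgeR (0%), 252 at an unadjusted p under 0.05 and 0 in DESeq2. Interferon-stimulated genes had a median difference of 0.56 with 33 of 36 above 0, and effector and cytotoxic genes of 0.78 with 17 of 20 above 0, against 0.01 over all genes, with no call in either list. Gzmk had the smallest p (difference of log2 changes 3.15, SE 0.68, adjusted p = 0.391). The summed level of interferon-stimulated genes in the Tcf7-positive cells was 15057, 18975, 8168 and 10329 CPM in the same RT + αPD-L1 mice, against 6477, 6814 and 6026 CPM in Control, with the same mice highest as in the Tcf7-negative cells. In cells of 6000 or more UMIs 1 RT + αPD-L1 mouse was left, so no conclusion is drawn from calls there.

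Promoters of the genes that were higher in RT + αPD-L1 were searched for the interferon-stimulated response element, the DNA site of the interferon-activated factor ISGF3. Windows of 250 bases before to 50 after the start of each gene (RefSeq, GRCm38.p6) were scanned on both strands for 2 GAAA half-sites separated by 2 bases. It was found in 15 of 32 higher genes with a window (46.9%), in 137 of 2811 tested genes (4.87%) and in 1079 of 27025 genes (3.99%). Some of the 15 are related genes with near-identical stretches, such as Ifi208 and Ifi213, so they are not independent. Stretches of 4 of these windows are printed with every match in capitals, because these genes were called and hold 1 to 3 matches at different distances from the start; they were chosen after their values were seen. A match on the opposite strand reads as 2 TTTC half-sites.
Ifit1: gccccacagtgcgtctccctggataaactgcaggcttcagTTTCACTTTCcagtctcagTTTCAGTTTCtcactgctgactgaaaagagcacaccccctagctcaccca
Ifit3: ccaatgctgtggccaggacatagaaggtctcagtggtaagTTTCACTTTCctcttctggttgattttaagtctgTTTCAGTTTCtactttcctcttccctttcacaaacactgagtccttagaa
Isg15: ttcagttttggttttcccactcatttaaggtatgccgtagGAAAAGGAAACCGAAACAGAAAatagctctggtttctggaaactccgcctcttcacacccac
Slfn5: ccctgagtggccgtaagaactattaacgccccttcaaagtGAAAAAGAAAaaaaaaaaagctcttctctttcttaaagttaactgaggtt

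The Ifit1 stretch lies at chr19:34640745-34640853 (plus strand) with 2 matches, the Ifit3 stretch at chr19:34583333-34583456 (plus strand) with 2, the Isg15 stretch at chr4:156200835-156200936 (minus strand) with 3 overlapping matches, and the Slfn5 stretch at chr11:82951907-82951996 (plus strand) with 1. All 4 lie upstream of the gene start. The core site of TCF and LEF factors, TCAAAG, was searched in the same way. It was found in 13.9% of the genes higher and 15.1% of those lower in Tcf7-negative than in Tcf7-positive cells, against 14.0% of tested genes. In the 32 genes higher in RT + αPD-L1 it was found in 11 (34.4%), against 14.6% of tested genes. The AP-1 site TGANTCA was found in 7 (21.9%), against 5.27%. The NR4A site AAAGGTCA was found in 0 of the 32, against 1.21% of tested genes. None of these motifs contains another. A match is a description of the letters, not evidence of binding.

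The cells differed among themselves, and 3 splits chosen after seeing the values are given as descriptions. Xcl1 had 0 UMIs in 185 cells, 1 to 9 in 90 and 10 or more in 97, with up to 207 in a cell, and 37 cells held 68.5% of its 4968 UMIs. After thinning to equal depth, Tnfrsf9 was found in 51.9% of Xcl1-positive and 15.1% of Xcl1-negative cells, Nrgn in 27.8% and 10.3%, and Cd160 in 44.4% and 17.8%, each at a higher CPM in 11 of 11 mice. Myc was found in 34.2% of Xcl1-positive and 15.1% of Xcl1-negative cells. Ccl5 went the other way (11.2% and 35.1%, lower in 10 of 11 mice), as did Gzmk (4.81% and 18.9%). The Xcl1-positive cells were deeper, with medians of 7782 and 4820 UMIs before thinning.

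Ccl5-positive cells (126) more often had Gzmk (24.6%, against 5.28% of the 246 Ccl5-negative cells), Cxcr3, a receptor for interferon-induced chemokines (32.5% against 15%, higher in 9 of 11 mice), and Isg15 (32.5% against 20.3%, higher in 11 of 11). They less often had Tnfrsf9 (20.6% against 40.2%). Nrgn-positive cells (94) more often had Nrn1 (55.3% against 20.9%) and Cd200 (53.2% against 31.3%), and less often Myc (13.8% against 28.4%).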

How the data were processed

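CD8+ PD-1+ CD44+ lymph node cells of 4 treatments, 5 hashed mice each, were sequenced as 4 droplet libraries. The deposited matrices hold unnormalized UMI counts for each barcode, by gene and by hashtag, which the authors made with Cell Ranger (6.1.2 in the matrix header) on mm10. Barcodes with 2000 to 40000 UMIs, 500 to 5000 genes and under 10% mitochondrial UMIs were kept. No doublet caller was run, and barcodes with several hashtags or none were left out of comparisons over mice. A mouse was assigned where 1 hashtag lay above the emptiest bin of its count distribution. This departs from the study, which used HTODemux (Seurat 5.3.0 here), tried as an alternative.

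Counts were summed per mouse and population (at least 10 cells) and tested with edgeR 4.0.16 (quasi-likelihood, TMM, filterByExpr, Benjamini-Hochberg adjustment over all genes tested, R 4.3.3). DESeq2 1.42.0 was an alternative. Shares were compared by exact permutation tests (scipy 1.17.1). The mice of 1 library were processed together, so p-values over mice do not cover differences between libraries. Named genes were the 12 largest in each direction at 20 CPM or more, the 3 leading called genes of each list, genes the study names and, with under 5 calls, the 5 smallest p-values; others were chosen after their values were seen. The cells and lists were chosen with earlier results of these data known. The fits were tested on simulated data. Some genes of the lists are counted but not reported here by name.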

Additional observations from a re-analysis of the deposited data

How the results depend on the processing

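Depth is a limit: a Tcf7 count of 0 was more frequent in shallow cells, and summed counts per mouse were 78613 to 343804 UMIs. The population comparisons had mouse as a block. No paired analysis was possible because hashtag numbers do not pair mice of different treatments and the labels give each treatment 1 sample, which concerns the treatment comparisons only. Cells of 6000 or more UMIs were an alternative chosen after seeing the data. Over the named genes 6871 values kept their side of the threshold, 400 lost the call, 76 gained it and 14 changed sign, and the cause was not tested. A sign change was counted only where at least 1 of both fits called the gene. The 6871 may therefore include uncalled values that changed sign. Called genes fared less well: against Tcf7-positive cells 42 of 55 lost the call with the thinned gate, and for RT + αPD-L1 against Control 106 of 341 values over all alternatives lost it.

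Differences in share, in percentage points, changed as follows. With the thinned gate αPD-L1 minus Control was 0.1044 and RT + αPD-L1 minus RT 0.2075. Over all filtered barcodes RT + αPD-L1 minus αPD-L1 was 0.3451 (exact permutation test, adjusted p = 0.0397). In cells of 6000 or more UMIs RT + αPD-L1 minus Control was −0.2115, RT minus Control −0.4662 and RT + αPD-L1 minus RT 0.2547. Leaving out a mouse gave 0.0175 to 0.3605 for RT + αPD-L1 minus Control, 0.0826 to 0.5255 for RT minus Control, −0.4612 to −0.1312 for αPD-L1 minus Control, −0.3412 to 0.1131 for RT + αPD-L1 minus RT (0.1131 without RT replicate 4) and 0.3135 to 0.5779 for RT + αPD-L1 minus αPD-L1.

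Numbers of called genes changed as follows. At 6000 UMIs mouse 3 was the only RT + αPD-L1 mouse with at least 10 cells. The counts at 6000 UMIs for RT + αPD-L1 against other treatments and for the interaction therefore rest on 1 mouse in that group. They are listed for completeness and no conclusion is drawn from them. RT + αPD-L1 against Control had 149 with no filter on low counts, 121 with 20 cells per mouse, 24 and 2 with HTODemux at margins 2 and 1, 25 with the thinned gate, 23 at a receptor sum of 4 and 11 at 6000 UMIs. RT against Control had 20 with no filter, 1 with 20 cells and 1 with the thinned gate. αPD-L1 against Control had 24 with no filter and 0 at margin 1, with the thinned gate and at a sum of 4. RT + αPD-L1 against RT had 111 with no filter, 82 with 20 cells and 2 at margin 1. RT + αPD-L1 against αPD-L1 had 117 with no filter, 30 with 20 cells, 3 at margin 1, and 0 at a sum of 4 and at 6000 UMIs. Against Tcf7-positive cells there were 910 with 20 cells, 46 with the thinned gate and 976 at a sum of 4, and against checkpoint-low cells 1121 with the thinned gate and 1054 at 6000 UMIs. The interaction had 18 with no filter, 7 with 20 cells, 1 at margin 1 and 13 at 6000 UMIs. Leaving out a mouse gave 1 to 78 for RT + αPD-L1 against Control, 0 to 0 for RT and 0 to 1 for αPD-L1 against Control, 2 to 41 against RT, 2 to 54 against αPD-L1, 1432 to 1689 against Tcf7-positive cells, 2287 to 2472 against checkpoint-low cells and 0 to 0 for the interaction.

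Among named genes called in at least 1 of both fits, these log2 changes had the opposite sign. Against Tcf7-positive cells with the thinned gate they were Adgrg5 0.24, Isg15 −0.12, Nr4a3 −0.081, Slc2a1 −0.25 and Stmn1 0.16, and at 6000 UMIs Dusp1 −0.39, Gbp4 −0.40, Irf7 −0.66 and Isg15 −0.024. Against checkpoint-low cells they were Dusp1 −0.20 at 6000 UMIs, and Mcm2 −0.084, Mcm5 −0.46, Myc −0.47 and Psme2 −0.017 with the thinned gate.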

Other observations

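The variable segment of the T cell receptor β chain could be read in part. Of the 358 cells traced to a mouse, 172 had UMIs of exactly 1 Trbv segment. A Trbv UMI was found in 99.2% of the 358 cells, so most of the others carried several segments and were left out. Trbv19 was found in 12.8% of these (22 cells), against 7.81% of Tcf7-positive checkpoint-high cells and 8.38% of checkpoint-low cells. Trbv3 was found in 11.05% (19 cells), against 5.52% of Tcf7-positive checkpoint-high cells and 7.49% of checkpoint-low cells. Trbv12-1 was found in 8.72% (15 cells), against 10.95% and 9.94%, and 7 of the 15 cells came from RT + αPD-L1 mouse 3. These shares were not tested, since cells of a mouse can belong to a clone.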
